A study of Mus musculus with 6 samples.

Results

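Stk16 and Tuba4a are neighbouring genes of mouse chromosome 1, with no protein-coding gene between them in the RefSeq order. They were picked from the table of transcript clusters, the probe groups of the array, as the rows whose single gene symbol was one of these names. Each had 1 cluster (TC0100000655.mm.1 for Stk16 and TC0100002604.mm.1 for Tuba4a), so these are 2 of 7647 named genes. Both were chosen with the difference between siDicer and siScr already known, so that difference is described for them and carries no test. The samples were Melan-a cells, a permanently growing line of pigment-making melanocytes from C57BL/6 mice, female per the labels and grown with 200 nM of the phorbol ester TPA. They had received 50 pmol of an siRNA against Dicer (siDicer) or of a control siRNA (siScr), 3 arrays each. In both groups replicates 1, 2 and 3 came from passages 47, 54 and 56, the counts of times the line had been replated. Titles place the collection 48 h after transfection, while the protocol describes fresh medium after 6 h and lysis 24 h later.

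STK16 is a serine/threonine kinase of the Numb-associated kinase family. It is held on membranes by attached fatty acids, is found largely at the Golgi, and has been tied to secretion and to TGF-beta responses. TUBA4A is an alpha-tubulin, which pairs with beta-tubulin to build the microtubules along which melanosomes and other organelles travel. Dicer cuts microRNA precursors into the mature microRNAs that lower the level of many messenger RNAs.

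The values were log2 signals, and array medians lay between 4.63 and 4.68. Any pair of arrays had a correlation of 0.993 to 0.997 across clusters. The identifiers covered chromosomes 1 to 4, so Dicer1 was not analysed here and the knockdown could not be checked. Of 10 melanocyte markers 3 had a value (Tyrp1, Slc24a5 and Pax3), with a mean level per array of 11.10 to 11.44 in siDicer and 11.24 to 11.61 in siScr. The 5 keratinocyte markers with a value averaged 4.48 to 4.56 and 4.46 to 4.58, the 6 leukocyte markers 3.64 to 3.69 and 3.60 to 3.75, and the 4 fibroblast markers 6.91 to 7.20 and 6.77 to 7.09. Of these, 3 keratinocyte, 3 leukocyte and 0 fibroblast markers lay under the level used to leave out dim genes. The ranges of the siDicer and siScr arrays overlapped for each of these lists, and the part of other cells in the results was not tested. In bulk RNA, fewer cells of a type and less RNA per cell cannot be told apart.

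The pair lies tail to tail, with Stk16 on the plus strand and Tuba4a on the minus strand, and their RefSeq gene models overlap at the 3′ ends. Whether the array's probes tell the strands apart is not given in the sources used here. The starts lie at opposite ends of the pair, so Stk16 and Tuba4a do not share a promoter. The 250 bases before each start are shown because they are what the 2 genes do not share. They come from the RefSeq promoter table (GRCm38.p6, with 1 window for each gene), at chr1:75210579-75210828 on the plus strand for Stk16 and chr1:75219295-75219544 on the minus strand for Tuba4a. The build of the array's annotation is not given in the sources used here. In the Stk16 sequence, capitals mark the 73 bases between its start and that of Glb1l, a gene read in the opposite direction. In the Tuba4a sequence, capitals mark the 2 matches to GGGCGG, the GC box.
Stk16: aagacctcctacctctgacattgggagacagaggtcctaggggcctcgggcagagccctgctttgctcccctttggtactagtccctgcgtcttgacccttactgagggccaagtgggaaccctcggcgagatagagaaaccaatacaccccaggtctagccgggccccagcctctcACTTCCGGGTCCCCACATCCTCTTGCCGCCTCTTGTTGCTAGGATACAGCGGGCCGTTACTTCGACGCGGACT
Tuba4a: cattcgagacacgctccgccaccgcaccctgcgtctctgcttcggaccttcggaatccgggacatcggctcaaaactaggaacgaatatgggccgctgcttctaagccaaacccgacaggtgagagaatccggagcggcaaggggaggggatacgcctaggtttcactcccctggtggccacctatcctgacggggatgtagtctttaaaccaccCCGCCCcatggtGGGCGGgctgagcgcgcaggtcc

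Both windows were rich in G and C, at 60% for Stk16 and 61.6% for Tuba4a, and held 12 and 20 CG dinucleotides. Fewer CG dinucleotides were found in 66.5% of all 32851 promoter windows of this length than in that of Stk16, and in 82.1% than in that of Tuba4a. A set of 7 motifs was searched on both strands. These were the GC box spelled GGGCGG, the box spelled CCAAT and the site of ETS factors spelled CCGGAAG. The cyclic AMP response element (CRE) was searched as TGACGTCA and the E-box as CACGTG. For the core of the M-box found in pigment genes the letters CATGTG were used, and for the TATA box the letters TATAAA. No 2 matches found here overlapped. Stk16 had CCAAT at 231 and 110 bases before the start and CCGGAAG at 72 bases before it, inside the stretch between Glb1l and Stk16. Tuba4a had GGGCGG at 35 and 23 bases before the start. The CCAAT box is present in 33.8% of all windows, the ETS site in 6.91% and the GC box in 32.7%. The letters of CRE, E-box, M-box core and TATA box (1.55%, 6.02%, 12.3% and 12.4% of all windows) were in neither window. The 2 genes thus had no matched motif in common, and a match is a description of the letters, not of a factor bound there.

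Stk16 stood higher in siDicer cells at all 3 passages. Its log2 signal was 7.50, 7.33 and 7.24 in siDicer at passages 47, 54 and 56. In siScr it was 6.74, 6.78 and 6.80. The groups did not overlap, and the lowest siDicer array lay 0.44 above the highest siScr array. The siDicer mean was 7.36 ± 0.13 and the siScr mean 6.78 ± 0.031 (SD, n = 3), a log2 difference of 0.58 with a standard error of 0.080, or 49.6% more signal. The siScr arrays were within 0.060 of each other and the siDicer arrays within 0.26.

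Tuba4a did not separate the groups. Its log2 signal was 8.47, 7.84 and 8.04 in siDicer at passages 47, 54 and 56. In siScr it was 8.06, 7.70 and 8.22. The 2 groups overlapped, since the siDicer arrays of passages 54 and 56 lay below the highest siScr array. The siDicer mean was 8.12 ± 0.32 and the siScr mean 7.99 ± 0.26 (SD, n = 3), a log2 difference of 0.12 with a standard error of 0.18, or 9.02% more signal. This difference was smaller than the spread within either group, a spread that includes differences between passages. With passage in the model the standard error was 0.11. The difference turned to -0.050 without siDicer replicate 1, to -0.020 without siScr replicate 2 and to -0.048 with array weights. It was 0.26 and 0.24 without siDicer replicate 2 and siScr replicate 3, whereas that of Stk16 ran from 0.51 to 0.64 with 1 array left out.

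**Figure D1:**
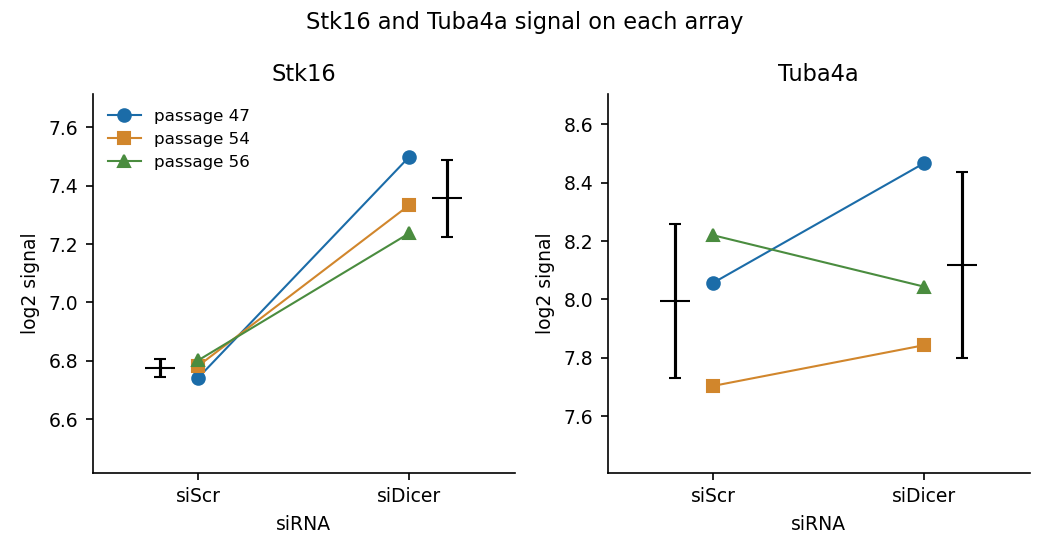
Log2 signal (y axis) of Stk16 (left) and Tuba4a (right) in siScr and siDicer cells (x axis), with 1 point per array, lines joining arrays of 1 passage, and black bars for the mean ± SD of 3 arrays. The 3 Stk16 lines rise from 6.74 to 6.80 up to 7.24 to 7.50, while for Tuba4a the lines of passages 47 and 54 rise and that of passage 56 falls from 8.22 to 8.04.

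Among the 5353 genes tested, the groups did not overlap in 14.5%, with siDicer higher in 6.67% and lower in 7.83%. This applied to 1 of the 2 genes, Stk16, and nothing is read from that count because the contrast chose it. The size of the Stk16 difference exceeded that of 99.6% of tested genes and the size of the Tuba4a difference that of 76.9%. These ranks too come from the contrast that chose the genes, so they are descriptions only. In the fit across all genes (limma, adjusted p under 0.05) 0 genes passed as higher (0%) and 1 as lower (0.0187%, Tmem131), and 456 had an unadjusted p under 0.05. With passage as a block, 61 passed as higher (1.14%) and 33 as lower (0.616%).

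Within passages both genes were higher in siDicer at passages 47 and 54, and at passage 56 Stk16 was higher and Tuba4a lower. The siDicer minus siScr difference of Stk16 was 0.76, 0.55 and 0.44 at passages 47, 54 and 56 (1.69-, 1.47- and 1.35-fold higher). That of Tuba4a was 0.41, 0.14 and -0.18. Both differences were highest at passage 47 and lowest at passage 56, an order shared by 20.9% of tested genes. Among the 18 tested genes around the pair, described below, 7 had this order too. Stk16 kept its sign and Tuba4a did not, and 36.1% of tested genes had 1 sign at all 3 passages. With 1 array of each siRNA at a passage, the change of the difference between passages was not tested.

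The passages, whose differences played no part in choosing the genes, had lower Tuba4a signals at passage 54. Stk16 varied little when both siRNAs were averaged, though its siDicer and siScr signals moved in opposite directions. Averaged over both siRNAs, Tuba4a was at 8.26, 7.77 and 8.13 at passages 47, 54 and 56, so passage 54 was lowest, and this held in siDicer and in siScr separately. From passage 47 to 54 its signal differed by -0.49 ± 0.13 (SE), and from 54 to 56 by 0.36 ± 0.13. The first of these ran from -0.70 without siScr replicate 1 to -0.27 without siDicer replicate 1. Its range over the passages exceeded that of 97.2% of tested genes. The F test over the passages did not pass (limma, adjusted p = 0.188, unadjusted p = 0.0167). It passed when replicate 3 of siDicer was left out (limma, adjusted p = 0.0206) and when replicate 3 of siScr was (limma, adjusted p = 0.0333), each of which leaves passage 56 with 1 array, and was at 0.162 to 0.665 without any other array.

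Stk16 was at 7.12, 7.06 and 7.02 at the same passages, averaged over both siRNAs. From passage 47 to 56 it fell from 7.50 to 7.24 in siDicer and rose from 6.74 to 6.80 in siScr. The average hides these opposite moves. From passage 47 to 54 its difference ran from -0.19 without siScr replicate 1 to 0.070 without siDicer replicate 1. The largest difference of the average between passages was -0.10 ± 0.093 (SE), and its range exceeded that of 36.3% of tested genes (limma, F test, adjusted p = 0.807). Of 5353 genes 100 passed this test (1.87%), and of these 2 genes neither did. The test compares 2 arrays per passage, and the count of 100 ranged from 17 to 308 with 1 array left out.

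**Figure D2:**
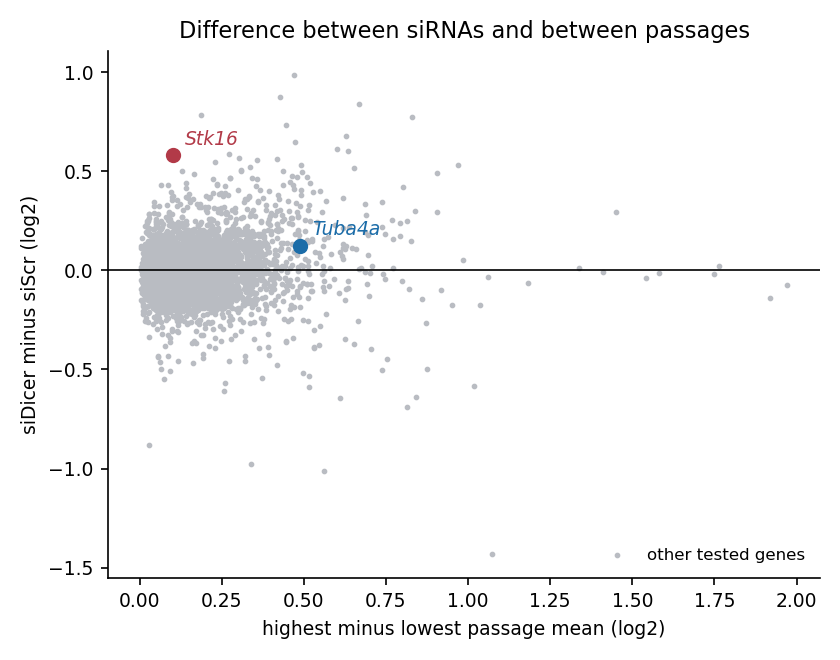
Each point is 1 tested gene, with the highest minus the lowest passage mean (x axis, log2) against the siDicer minus siScr difference (y axis, log2). Stk16 lies high and to the left (0.10, 0.58), and Tuba4a lies near zero on the y axis and farther right (0.49, 0.12).

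The genes around the pair were then described, taking the 10 nearest protein-coding genes on each side whatever their values. All 20 had a value, and 18 were bright enough to be tested. In siDicer 7 were higher and 11 lower, with a median difference of -0.011 against -0.0093 over all tested genes. With limma 0 of 18 passed with or without passage as a block, where 0.0187% and 1.76% of all tested genes did. An unadjusted p under 0.05 was found for 1 of 18 without the block (5.56%, against 8.52% of all tested genes) and for 2 with it (11.1%, against 13.8%), so the neighbours were near the background. The median turned to 0.028 without siDicer replicate 3 and to 0.0005 after each array was centred on its median.

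Glb1l, a relative of the lysosomal beta-galactosidase gene, is the gene whose start faces that of Stk16. Its log2 signal was 5.31, 5.30 and 5.26 in siDicer and 5.34, 5.15 and 5.45 in siScr at passages 47, 54 and 56. These signals lay nearer the array medians (4.63 to 4.68) than those of Stk16 did, and no background signal could be measured. Whether a low signal narrowed the difference was not tested. The groups overlapped, and the difference was -0.025 ± 0.080 (SE, limma, adjusted p = 0.966). With 1 array left out it ran from -0.10 (without siScr replicate 2) to 0.041 (without siScr replicate 3). The passages gave -0.029, 0.14 and -0.19.

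On that side, Ankzf1, which acts in the quality control of stalled ribosomes, differed by -0.0036 and Abcb6, a porphyrin transporter, by 0.034. Atg9a, the membrane-spanning protein of autophagy, differed by 0.20 ± 0.12 (SE, limma, adjusted p = 0.716) and gave 0.30, 0.29 and 0.012 at the passages. With passage as a block its standard error was 0.077 (limma, adjusted p = 0.305). Zfand2b, which binds the proteasome, differed by 0.014. Beyond Tuba4a, A630095N17Rik and Resp18 were dim and not tested. The chaperone gene Dnajb2 differed by -0.078, Ptprn, a receptor-like phosphatase of secretory granules, by 0.027, and the aminopeptidase gene Dnpep by -0.085. With 1 array left out the differences of Ankzf1, Abcb6, Zfand2b, Ptprn and Dnpep took both signs. Atg9a was at 0.095 without siScr replicate 2 and Dnajb2 came to -0.019 without siDicer replicate 3.

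Chpf, a chondroitin polymerising factor 10 genes beyond Tuba4a, was singled out after its values were seen, as the 1 neighbour of 18 whose groups did not overlap (5.56%, against 14.5% of all tested genes). It was at 7.75, 7.72 and 7.59 in siDicer and 7.36, 7.34 and 7.51 in siScr. Its difference was 0.28 ± 0.078 (SE), in the same direction at 3 of 3 passages, and did not pass (limma, adjusted p = 0.298 without the passage block and 0.165 with it).

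At passage 56, 14 of the 18 neighbours were lower in siDicer, where Tuba4a was lower too and Stk16 higher. Their median difference there was -0.11, against -0.019 over all tested genes, of which 55.5% were lower. At passages 47 and 54, 7 and 6 neighbours were lower and 11 and 12 higher, with medians of 0.041 and 0.031. Each of these differences rests on 1 array of each siRNA. The 18 neighbours share those arrays, so they do not act as separate replicates. The comparison of neighbours was planned over all arrays, and these counts by passage were not planned.

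**Figure D3:**
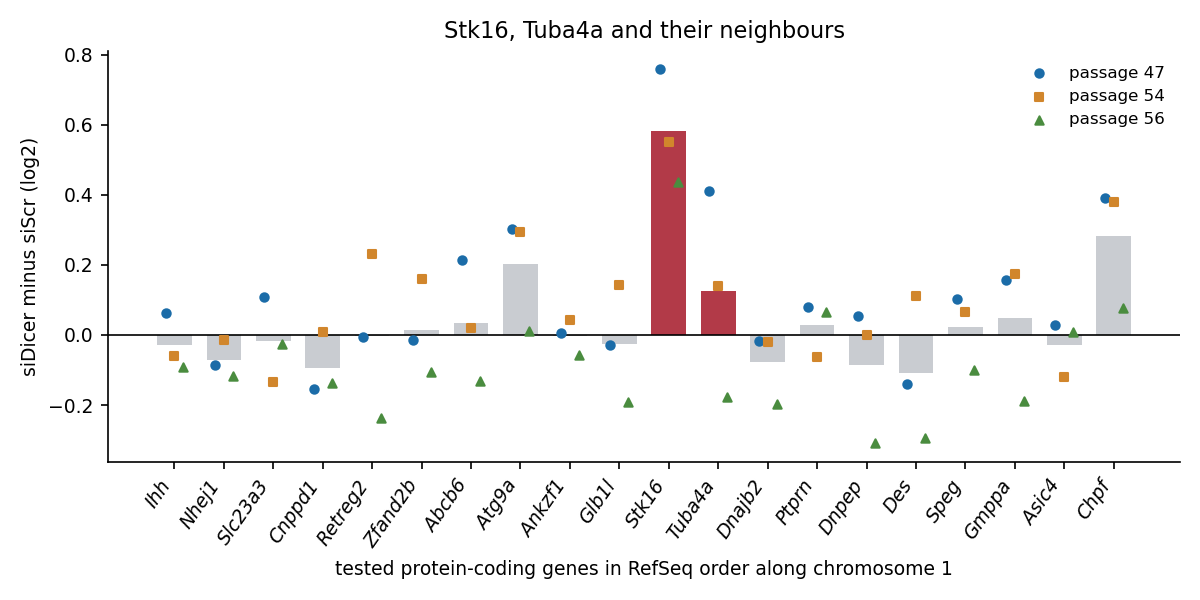
Bars give the siDicer minus siScr difference (y axis, log2, mean over 3 passages) of Stk16 and Tuba4a (red) and the 18 tested neighbours (grey) in their order along chromosome 1 (x axis), and points give the 3 passages. The Stk16 bar reaches 0.58 and those of Glb1l and Tuba4a, on either side of it, -0.025 and 0.12.

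Between passages, 1 of the 18 neighbours passed (5.56%), against 1.87% of all tested genes, a background of 100 genes that ran from 17 to 308 with 1 array left out. Ptprn was highest at passage 54, at 7.12 in siDicer and 7.19 in siScr against 6.65 to 6.77 on the other arrays. From passage 47 to 54 it rose by 0.47 (limma, F test, adjusted p = 0.0443), while Tuba4a had its lowest values at that passage. The call was lost when siDicer replicate 1 or 2 (adjusted p = 0.153 and 0.149) or siScr replicate 1 or 2 (adjusted p = 0.147 and 0.399) was left out, with dim genes kept (adjusted p = 0.0712) and without siRNA in the model (limma, adjusted p = 0.100).

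Likeness between profiles was measured as the root mean square difference over the 6 arrays after subtracting each gene's own mean. Profiles were not scaled, so the measure depends on the size of a gene's changes as well as on their pattern. A large distance can thus mean a flat profile as well as a different one. The 5 genes most like Stk16 were Tinagl1, a matrix protein (0.075), Lypla2, an enzyme that removes palmitate from proteins (0.097), Sulf2, which trims sulfate from heparan sulfate (0.098), Ncstn, the nicastrin subunit of gamma-secretase (0.11), and the small nucleolar RNA gene Snora41 (0.12). Their siDicer minus siScr differences were 0.50, 0.43, 0.43, 0.39 and 0.78. The genes were picked for following Stk16 over these same arrays, so higher values in siDicer were built into the choice. By the same measure Tuba4a was at 0.31 from Stk16 and ranked 2045 of 5352, where the median gene was at 0.32. Chpf ranked 36 and Glb1l 2820.

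The 5 genes most like Tuba4a were Abca2, a lipid transporter (0.077), the predicted gene Gm25395 (0.077), Extl1, a glycosyltransferase of heparan sulfate synthesis (0.079), Scamp3, a carrier protein of recycling membranes (0.080), and Cd55, which limits complement (0.081). Their siDicer minus siScr differences were 0.085, 0.19, 0.13, 0.016 and 0.26. Among the 18 tested neighbours the closest to Tuba4a were Atg9a (rank 23 of 5352), Abcb6 (58), Retreg2 (63) and Gmppa (70), at 0.11 to 0.14. Others lay far from it, with Ihh at rank 3722, Asic4 at 3775, Des at 4315 and Ptprn at 5237. Stk16 ranked 4083, and the median gene was at 0.27. These measures share the 6 arrays, so the differences of the genes picked follow from that choice. They are given without a test.

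**Figure D4:**
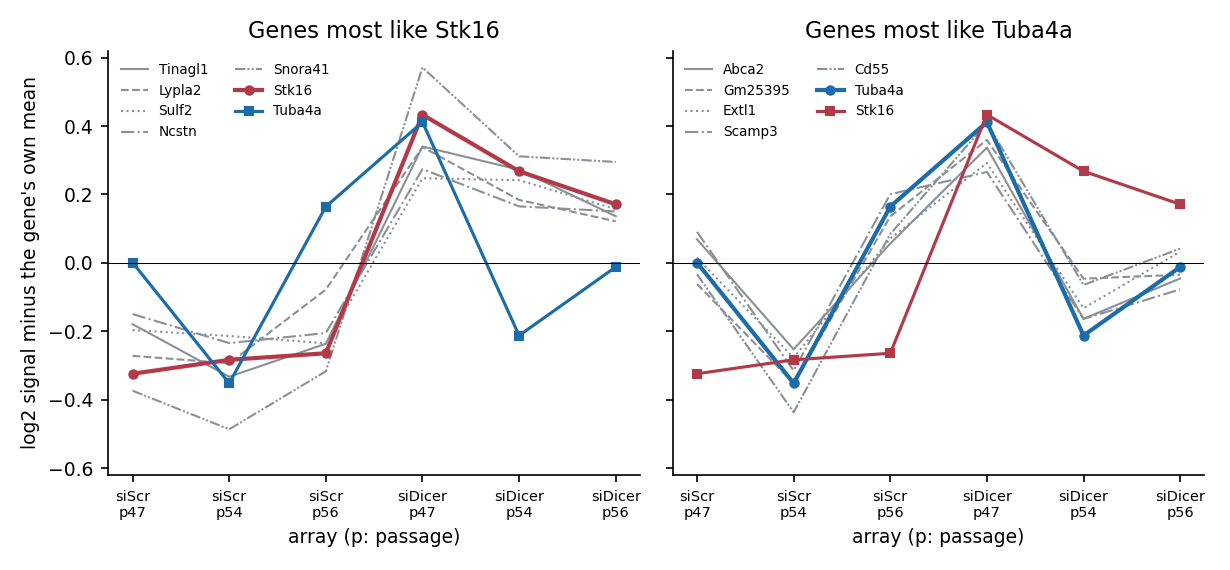
Log2 signal minus the gene's own mean (y axis) on each of the 6 arrays (x axis, siRNA and passage), for Stk16 (red), Tuba4a (blue) and the 5 genes most like Stk16 (left, grey) or Tuba4a (right, grey). Stk16 steps up between the siScr and siDicer arrays, while Tuba4a is lowest at passage 54 in both groups.

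Other genes of the same pathways were taken from lists of known members. Of 19 other tubulin genes 2 had a value, both beta-tubulins: Tubb4b differed by 0.24 ± 0.12 (SE, limma, adjusted p = 0.663) and Tubb1 by 0.076 (adjusted p = 0.879). With passage as a block the standard error of Tubb4b was 0.096 (limma, adjusted p = 0.320 for Tubb4b and 0.646 for Tubb1). Tubb1 had a low signal, with means of 4.99 in siDicer and 4.91 in siScr, against 8.33 and 8.08 for Tubb4b. With 1 array left out Tubb4b ran from 0.13 (without siScr replicate 1) to 0.39 (without siScr replicate 3), and Tubb1 turned to -0.017 without siDicer replicate 2. Tubb4b gave 0.48, 0.27 and -0.022 at passages 47, 54 and 56, and Tubb1 gave 0.026, 0.18 and 0.025. The Tubb4b difference, like that of Tuba4a, was highest at passage 47 and lowest at passage 56, as in 20.9% of tested genes. At passage 56, 55.5% of tested genes were lower in siDicer. Each of these differences rests on 1 array of each siRNA. Other alpha-tubulin genes were not analysed here.

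Of 7 tested genes from a list for tubulin folding and modification, 2 were higher and 5 lower, with a median of -0.018. The tubulin folding genes on that list (such as Tbca and Tbcb) were not among those tested. Ttll4, which adds glutamate to tubulin and is also a gene of chromosome 1, differed by 0.21 ± 0.063 (SE). Vash2, a tubulin tyrosine carboxypeptidase, differed by 0.13 and Ttll9 by -0.090. Of 16 microtubule-binding proteins 7 were higher and 9 lower (median -0.036). Fign, which severs microtubules, differed by 0.36 and passed once passage was in the model (limma, adjusted p = 0.0374, against 0.231 otherwise). Camsap2, which caps minus ends, differed by -0.16 and the neuronal protein Map2 by 0.19. Of 12 kinesin genes 6 were higher and 6 lower (median -0.0038), with Kif26b at 0.29, Kif24 at 0.092 and Kif12 at -0.060. Several of these moved by over 1.5 times with 1 array left out. Without siScr replicate 1 Vash2 was at 0.047 and Kif24 at 0.012, without siDicer replicate 1 Kif26b was at 0.18, without siDicer replicate 2 Map2 was at 0.12, and without siScr replicate 2 Kif12 was at -0.027.

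Of 19 Golgi genes, named for where STK16 is found, 7 were higher and 12 lower (median -0.027). Golim4, a Golgi membrane protein, differed by 0.16, Arfgap1, which switches off ARF1, by 0.14 and the SNARE gene Stx16 by -0.091. None of the 7 other Numb-associated kinases and listed STK16 partners had a value here. Over the 56 tested genes of these lists 0 passed without the block and 1, Fign, with it (limma, 1.79%), against 0.0187% and 1.76% of all tested genes. An unadjusted p under 0.05 was found for 4 without the block (7.14%, against 8.52% of all tested genes) and for 6 with it (10.7%, against 13.8%). These shares were near the background, and the differences of these genes ran from -0.16 to 0.36.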

How the data were processed

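RNA from 6 cultures was hybridised to Affymetrix Clariom D mouse arrays (100 ng of total RNA each), per the labels' protocols. The authors deposited log2 signals per transcript cluster. The submitters' processing notes name Affymetrix Expression Console, without a version. The normalisation method, like the annotation release and build, is not given in the sources used here. The log2 scale was inferred from the range of 1.70 to 13.70. How the values were centred is unknown beyond the array medians, and no background signal could be measured.

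Of 16383 clusters 7702 had 1 gene by the platform's annotation, 283 several and 8398 none. Symbols were updated through RefSeq (GRCm38.p6, 312 changed). For 54 genes with several clusters the brightest was used. Dim genes, with a mean below log2 4.15 (percentile 30), were dropped. The siRNA groups were tested in R 4.3.3 by limma 3.58.1 (lmFit, eBayes with a trend, two-sided, Benjamini-Hochberg over 5353 genes, threshold 0.05). Passages were compared with siRNA in the model. The scripts were tested on simulated data. Samples are biological replicates per the series' design text, and their number limits the precision. An exact permutation test of 3 against 3 arrays, with the pairing by passage set aside, cannot go below 0.1.

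The labels tie each replicate number to 1 passage in both groups, so the numbers pair the samples. Deviations from the group means correlated at 0.42, 0.62 and 0.071 for passages 47, 54 and 56. The genes and lists were chosen with earlier results of these data known. Besides Stk16 and Tuba4a, the rule named the tested genes among the 5 nearest on each side, any neighbour that passed, for each list the 3 members of smallest p and any that passed, and the 5 genes most like each of the pair. Retreg2, Gmppa, Ihh, Asic4 and Des were named after their values were seen.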

Additional observations from a re-analysis of the deposited data

Results flagged for a closer look

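Tuba4a is listed here because its siDicer minus siScr difference was above 0 at passages 47 (0.41) and 54 (0.14) and below 0 at passage 56 (-0.18). With 1 array of each siRNA per passage, the difference between passages was not tested. Groups of 3 arrays were too small for the search for single arrays that stand apart.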

How the results depend on the processing

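The differences of Stk16 and Tuba4a moved by less than the SD pooled over both groups (0.096 for Stk16 and 0.29 for Tuba4a) under the alternatives tried, though Stk16 moved by more than the SD of its siScr arrays. That of Stk16 ran from 0.51 to 0.64 with 1 array left out, and that of Tuba4a from -0.050 to 0.26, with -0.048 under array weights. With passage as a block the count of genes that differed between the siRNAs was 94, with 1 gene of the lists (Fign), and the block changed no call among the neighbours. The siRNA count was 14 with array weights and ran from 0 to 2 with 1 array left out. The count of genes that differed between passages was 204 after median centring, 165 with array weights, 61 with dim genes kept, 20 without siRNA in the model, and 17 to 308 with 1 array left out. The Tuba4a difference from passage 47 to 54 was -0.49 and ran from -0.70 to -0.27 with 1 array left out. The cause of these shifts was not tested. The number of arrays, and not a read depth, sets the precision.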
